A study of Homo sapiens with 6 samples.

Results

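The genes described here are 10 genes of the pericellular proteolysis system: the matrix metalloproteinase genes MMP1, MMP2, MMP9, MMP14 and MMP15, the tissue inhibitor genes TIMP1, TIMP2 and TIMP3, and the ADAM protease genes ADAM10 and ADAM17. They were taken by name, by matching the Ensembl identifiers of the count table to gene symbols. No measured value entered this match, but the genes were chosen with earlier results of these data known. All 10 were found among 18318 genes. The 6 libraries were made from rRNA-depleted RNA of A375, a long-established melanoma cell line of human origin. In 3 of them the cells had been transfected with a pcDNA3.1 plasmid that carries wild-type SLNCR, a long non-coding RNA whose gene symbol is LINC00673, and in the other 3 with the vector backbone alone. All 6 cultures share the transfection and 48 h in medium with puromycin at 2 µg/mL, for which the plasmid carries the resistance gene. Expression was driven by a CAG promoter, and whole transfected cultures of 1 line were read.

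Matrix metalloproteinases are zinc-dependent enzymes that cleave collagens and other matrix proteins, and in melanoma they are studied for their part in invasion. They are made as inactive precursors. The TIMPs block them by inserting their first residues into the active site. ADAM10 and ADAM17 are membrane-bound relatives that cut the outer part off cell surface proteins, among them NOTCH receptors, adhesion molecules and precursors of EGF receptor ligands. SLNCR has been reported to raise MMP9 in melanoma cells, which is the question that the comparison of the 2 plasmids addresses for these genes.

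The coding sequence of the active site is shown first, since it is the feature that makes the 7 enzymes comparable. The zinc-binding motif of 11 codons was found exactly 1 time in each of the 7 enzymes, in the longest complete coding sequence of GENCODE release 29 (GRCh38). The 33 bases below run 5′ to 3′ on the coding strand, and capitals mark the codons of the 3 histidines that hold the zinc ion.
MMP1: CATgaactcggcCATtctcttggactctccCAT
MMP2: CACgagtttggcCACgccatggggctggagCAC
MMP9: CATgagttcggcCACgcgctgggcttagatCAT
MMP14: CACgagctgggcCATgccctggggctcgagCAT
MMP15: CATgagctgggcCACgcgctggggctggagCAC
ADAM10: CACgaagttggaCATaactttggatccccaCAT
ADAM17: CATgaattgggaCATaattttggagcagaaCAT

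MMP14 and MMP15, both membrane-anchored enzymes, shared 28 of the 33 bases, as did MMP2 and MMP15. ADAM10 and ADAM17 shared 25, while MMP15 and ADAM10 shared 14. The same stretch differed in base composition, with a GC content of 36.4% in ADAM17 and 45.5% in ADAM10 but 69.7% in MMP14 and 72.7% in MMP15. The motif lies in exon 5 of 10 in MMP1 (chromosome 11, 102795549 to 102795581, minus strand), MMP14 (chromosome 14, 22843283 to 22843315, plus strand) and MMP15 (chromosome 16, 58040563 to 58040595, plus strand). In the gelatinase genes MMP2 (chromosome 16, 55491827 to 55491859, plus strand) and MMP9 (chromosome 20, 46012453 to 46012485, plus strand) it lies in exon 8 of 13. In ADAM17 it lies in exon 11 of 19 (chromosome 2, 9510078 to 9510110, minus strand). In ADAM10 it is split between exons 9 and 10 of 16 (chromosome 15, 58627881 to 58633225, minus strand).

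The counterpart in the inhibitors is the start of the mature TIMP. Its first 9 codons are printed for the 3 genes, with the codons of the first 2 cysteines in capitals, the first of which contacts the zinc of the enzyme.
TIMP1: TGCaccTGTgtcccaccccacccacag
TIMP2: TGCagcTGCtccccggtgcacccgcaa
TIMP3: TGCacaTGCtcgcccagccacccccag

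These 27 bases were identical at 17 positions between TIMP1 and TIMP2 and at 18 between TIMP3 and each of the others. They lie in exon 2 of 6 in TIMP1 (chromosome X, 47583485 to 47583511, plus strand). In TIMP2 (chromosome 17, 78924984 to 78925010, minus strand) and TIMP3 (chromosome 22, 32802071 to 32802097, plus strand) they lie in exon 1 of 5.

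Library facts that bear on the values are few. Totals over the genes used were 9018886 to 10497547 counts per library. SLNCR itself (LINC00673) was counted at 193 to 195 reads with the empty vector and 1786 to 2569 with the SLNCR plasmid. Of 11 melanoma markers 9 were among the genes counted, and TYR and S100B were not. MITF, SOX10, CSPG4 and MCAM had mean counts of 875, 126, 1780 and 2873, and MLANA and S100A1 only 13.7 and 14.8. The pigment genes PMEL, DCT and TYRP1 each had a mean under 10 reads. Of 6 immune and endothelial markers counted, 5 had a mean under 10 reads, while CD68 had a mean of 1125. Of 7 fibroblast markers 5 had a mean under 10 reads, and COL1A1 was highest at 26.8. The labels give the cell type as epithelial, and 7 of 8 epithelial markers in the table had a mean under 10 reads, among them EPCAM and CDH1. The summed level of these 8 markers was 5.73 to 6.57 CPM (reads scaled for library size by the TMM method) with the empty vector and 5.04 to 6.34 with SLNCR. For 9 RNAs read for RNA quality the sum was 31860 to 36860 CPM with the empty vector and 31240 to 33460 with SLNCR. The largest part was RN7SK, at 15440 to 17240 and 15700 to 16850 CPM. Single RNAs varied more: RN7SL2 stood at 2153 to 3133 and 1058 to 2181 CPM, and NEAT1 at 350 to 553 and 446 to 507 CPM. The libraries also differed in how counts ran with base composition: per 10 percentage points of transcript GC content, log2 CPM relative to the mean of the libraries moved by 0.13, 0.09 and 0.04 in the empty vector libraries 1 to 3, and by -0.08, -0.03 and -0.17 in SLNCR libraries 1 to 3. These slopes do not overlap between the groups.

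The A375 cells expressed 9 of the 10 genes, and TIMP1, MMP2 and TIMP2 had the highest levels. Levels between genes are given as CPM per kilobase of the longest transcript, which understates genes whose main transcript is shorter. With the empty vector TIMP1 was highest at 124 ± 9.17 CPM per kilobase (SD, n = 3), followed by MMP2, which degrades denatured and basement membrane collagen, at 69.0 ± 3.51 and TIMP2 at 59.3 ± 2.54. In this group the ranges of neighbours in that order did not overlap down to TIMP2. In the SLNCR group the ranges of MMP2 and TIMP2 overlapped. ADAM10 (13.8 ± 1.10), TIMP3 (12.8 ± 0.777), ADAM17 (12.0 ± 0.974) and the collagenase gene MMP1 (11.04 ± 1.31) formed a middle set in which each range overlapped the next in both groups. MMP14, whose product activates the MMP2 precursor in a complex with TIMP2, stood lower at 5.97 ± 0.634, and MMP15 at 1.33 ± 0.334. In bulk RNA, fewer cells that express a gene and less RNA per cell cannot be told apart.

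**Figure D1:**
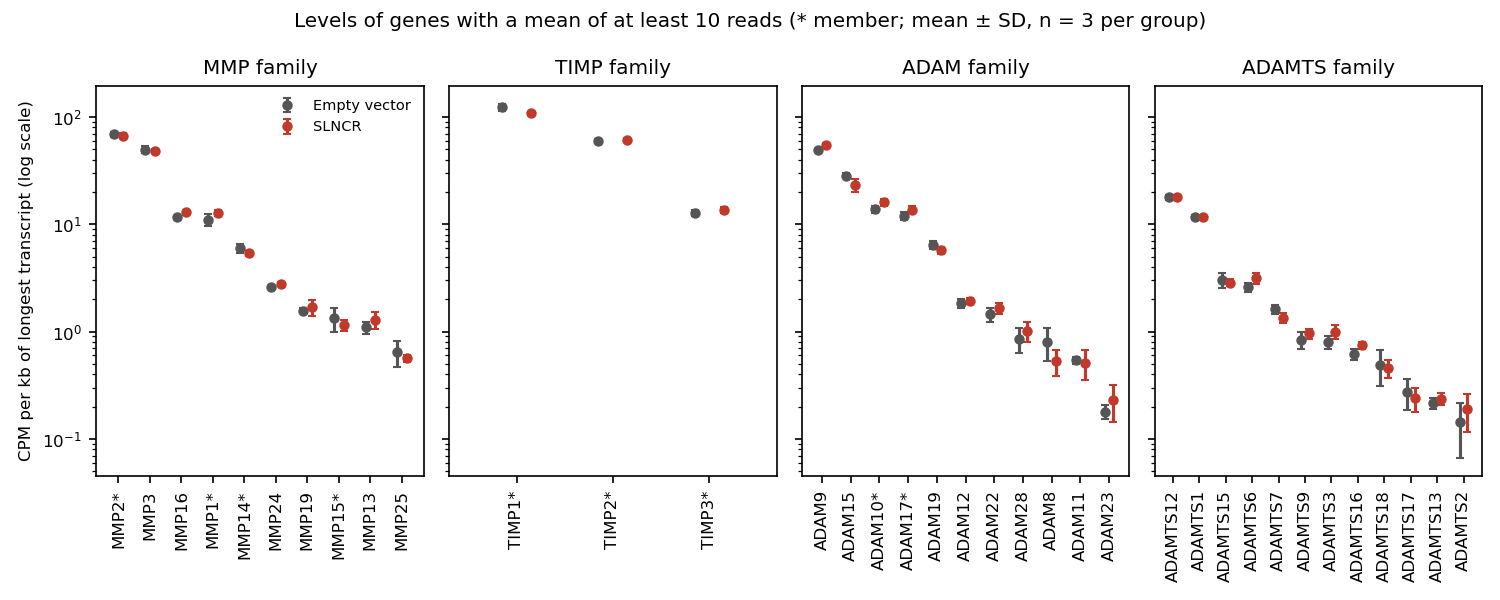
Mean level in CPM per kilobase of the longest transcript (log axis) of every MMP, TIMP, ADAM and ADAMTS gene with a mean of at least 10 reads, by group, with bars of ± SD over 3 libraries. Asterisks mark the genes of this account, all of which are drawn except MMP9, whose mean is below 10 reads. Per kilobase, MMP2 and TIMP1 lead their families, and ADAM10 and ADAM17 lie below ADAM9 and ADAM15. In CPM not divided by length, ADAM10 (158) lies above ADAM15 (128) with the empty vector.

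MMP9 encodes gelatinase B. It was counted at 1, 0 and 2 reads for empty vector replicates 1 to 3 and at 0, 1 and 1 for SLNCR replicates 1 to 3. The group sums were 3 and 2 reads, with exact 95% Poisson intervals of 0.619 to 8.77 and 0.242 to 7.23. The ratio of SLNCR to empty vector was 0.629 with an exact 95% interval of 0.0526 to 5.50, for counting error only. MMP9 did not pass the filter on low counts, so it was not tested, and the depth did not allow a difference to be detected.

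Among the tested genes only ADAM10 passed, with a small rise, and 8 of 9 did not pass (edgeR quasi-likelihood test, adjusted p of 0.05). Over all 12797 tested genes 16.5% passed, 8.84% upward and 7.67% downward, so 1 of 9 is near the background share. By DESeq2, which gave an adjusted p for 8 of the genes, ADAM10 was again the 1 gene called, beside 18.8% of all genes. Of the 9 fold changes, 5 were above and 4 below 0, from -0.21 to 0.21 on the log2 scale with a median of 0.04, against -0.01 over all tested genes. Libraries of the 2 plasmids were fully separated in CPM for TIMP1 and ADAM17, 2 of the 9, beside 38.9% of all tested genes. None of the 9 passed when replicate 1 or 2 of the empty vector or replicate 1 of SLNCR was left out, and the calls over all genes were then 1, 2 and 1. The plot of CPM by library shows how close the groups lie for each gene.

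**Figure D2:**
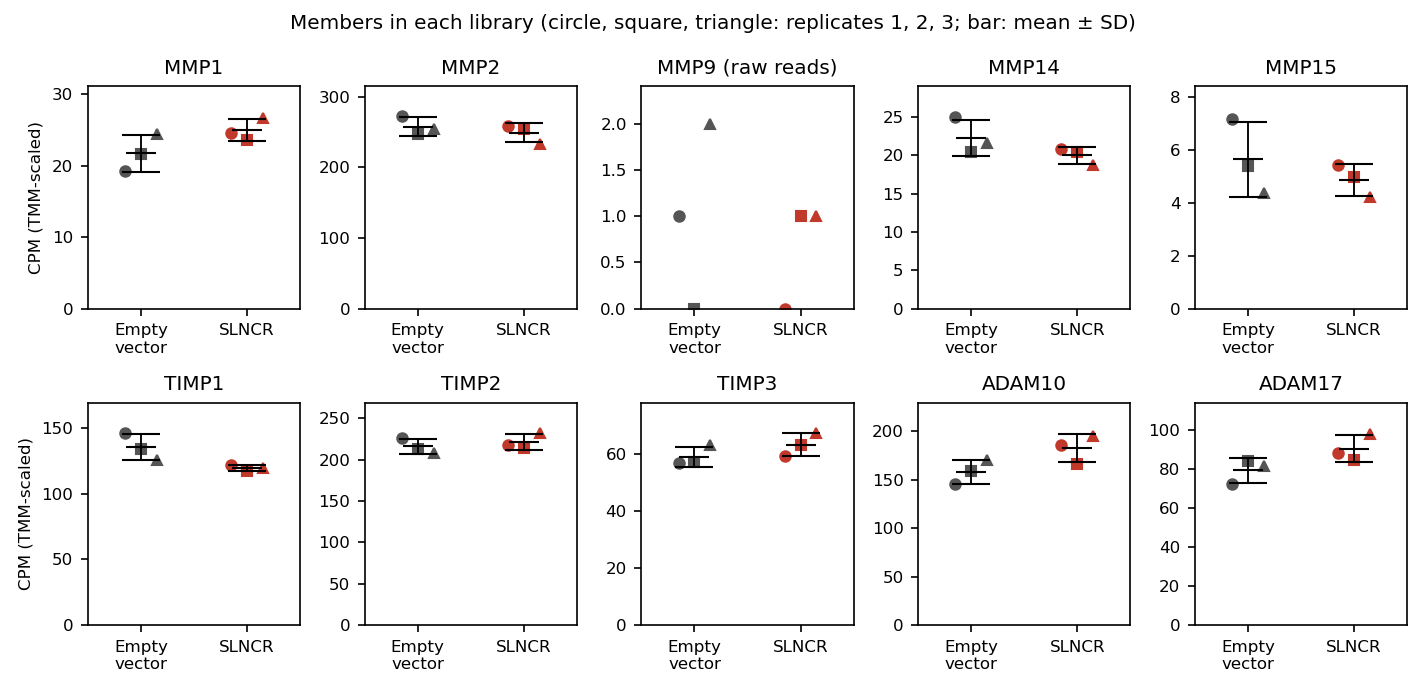
TMM-scaled CPM of each gene in the 6 libraries (raw reads for MMP9), with axes from 0; circles, squares and triangles are replicates 1, 2 and 3, and bars are mean ± SD. ADAM10 rises from 158 to 182 CPM on average with overlapping groups, and TIMP1 is the gene whose 3 SLNCR libraries all lie below its empty vector libraries.

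ADAM10, the main NOTCH and cadherin sheddase (ENSG00000137845, chromosome 15, 58588807 to 58749978, minus strand), had 1455, 1439 and 1556 reads for empty vector replicates 1 to 3 and 1948, 1734 and 1756 for SLNCR replicates 1 to 3. Scaled for library size these were 145, 159 and 170 CPM against 185, 167 and 195 CPM. SLNCR replicate 2 lay below empty vector replicate 3, so the groups overlapped. The level rose from 158 ± 12.6 to 182 ± 14.6 CPM (SD, n = 3 each), a log2 fold change of 0.21 (standard error 0.0687, 95% interval 0.06 to 0.35, edgeR adjusted p = 0.0480). The call was not stable when 1 library was left out. It was lost without empty vector replicate 1 (0.15, edgeR adjusted p = 0.239) or SLNCR replicate 3 (0.16, 0.0738), where 1 and 1517 genes passed in all. With its value little changed, it was also lost without empty vector replicate 2 (0.21, 0.143) or SLNCR replicate 1 (0.20, 0.144). In these 2 fits only 2 genes and 1 gene passed in all. The call was kept without empty vector replicate 3 (0.27, 0.0337) or SLNCR replicate 2 (0.27, 0.00540), where 1884 and 3366 genes passed in all.

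ADAM17 (ENSG00000151694, chromosome 2, 9488486 to 9556732, minus strand) encodes the sheddase that releases TNF and several EGF receptor ligands. It had 721, 764 and 743 reads with the empty vector and 928, 877 and 878 with SLNCR. In CPM these were 71.9, 84.2 and 81.3 against 88.2, 84.3 and 97.7. Every SLNCR library was above every empty vector library, though the nearest pair differed by little. The log2 fold change was 0.19 (standard error 0.0745, 95% interval 0.03 to 0.34, edgeR adjusted p = 0.0876), which did not pass. Without SLNCR replicate 2 it passed, at 0.23 (edgeR adjusted p = 0.0304), in a fit where 3366 genes passed in all. ADAM17 overlaps the opposite-strand gene IAH1, with a mean of 172 reads, and no strand setting is given in the sources used here, so reads from the shared stretch cannot be told apart.

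Of the matrix metalloproteinases none passed. MMP1, interstitial collagenase (ENSG00000196611, chromosome 11, 102789920 to 102798160, minus strand), had 193, 196 and 223 reads with the empty vector and 259, 246 and 240 with SLNCR. Scaled, these were 19.3, 21.6 and 24.4 against 24.6, 23.6 and 26.7 CPM, and the groups overlapped because empty vector replicate 3 lay above SLNCR replicate 2. The log2 fold change was 0.20 (standard error 0.103, 95% interval -0.02 to 0.42, edgeR adjusted p = 0.175). MMP1 shares its locus with WTAPP1, an opposite-strand gene with a mean of 91.7 reads.

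MMP2 (ENSG00000087245, chromosome 16, 55389700 to 55506691, plus strand) had 2731, 2241 and 2326 reads with the empty vector and 2726, 2652 and 2100 with SLNCR. At 258 ± 13.1 against 249 ± 13.6 CPM (SD, n = 3 each) the groups overlapped. The log2 fold change of -0.05 had a 95% interval of -0.17 to 0.07, and the edgeR adjusted p was 0.558. This interval does not reach the ADAM10 value of 0.21 in either direction, but it overlaps the ADAM10 interval of 0.063 to 0.352. The 2 genes were not compared by a test.

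MMP14, membrane type MMP (ENSG00000157227, chromosome 14, 22836557 to 22849027, plus strand), had 250, 185 and 197 reads against 219, 213 and 168. Empty vector replicate 1, at 24.9 CPM, was the highest library, and the other 5 lay between 18.7 and 21.6 CPM. The log2 fold change was -0.16 (standard error 0.103, edgeR adjusted p = 0.289). MMP15, a second membrane type MMP (ENSG00000102996, chromosome 16, 58025566 to 58046901, plus strand), had 72, 49 and 40 reads against 57, 52 and 38, with overlapping groups. Its log2 fold change of -0.21 had a wide 95% interval of -0.64 to 0.21 (edgeR adjusted p = 0.471). Without empty vector replicate 1 the value for MMP15 was 0.01.

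Of the 3 inhibitors none passed. TIMP1 (ENSG00000102265, chromosome X, 47582313 to 47586789, plus strand) had 1464, 1217 and 1152 reads with the empty vector and 1280, 1224 and 1075 with SLNCR. In CPM these were 146, 134 and 126 against 122, 118 and 120, with no overlap between groups. The log2 fold change was -0.18 (standard error 0.0623, 95% interval -0.31 to -0.05, edgeR adjusted p = 0.0565). Without empty vector replicate 3 or SLNCR replicate 3 it passed, at -0.23 (edgeR adjusted p = 0.0377) and -0.18 (0.0472). In these fits 1884 and 1517 genes passed in all.

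TIMP2, an inhibitor that also docks the MMP2 precursor on MMP14 (ENSG00000035862, chromosome 17, 78852977 to 78925387, minus strand), had 2273, 1939 and 1908 reads against 2295, 2231 and 2093. The groups overlapped at 216 ± 9.28 and 222 ± 9.78 CPM, and the log2 fold change was 0.04 (standard error 0.0550, edgeR adjusted p = 0.673). TIMP2 contains CEP295NL, a gene on the same strand with a mean of 12.7 reads. TIMP3, the matrix-bound inhibitor that also acts on ADAM10 and ADAM17 (ENSG00000100234, chromosome 22, 32801701 to 32863043, plus strand), had 569, 517 and 576 reads against 622, 657 and 604. Its groups overlapped in CPM, with a log2 fold change of 0.10 (standard error 0.0735, edgeR adjusted p = 0.351).

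Within libraries the balance of the MMP2 and TIMP2 transcripts per kilobase was similar across the groups apart from 1 library. The ratio of TIMP2 to MMP2 was 0.853, 0.886 and 0.840 for empty vector replicates 1 to 3 and 0.862, 0.862 and 1.02 for SLNCR replicates 1 to 3. SLNCR replicate 3 was the highest of the 6. The ratio of TIMP1 to TIMP2 was 2.15, 2.09 and 2.01 with the empty vector and 1.86, 1.83 and 1.71 with SLNCR. These ratios of 2 members were not tested.

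The order of the 9 fold changes followed the GC content of the transcripts. ADAM10 (38.3% GC in its longest transcript), ADAM17 (38.5%) and MMP1 (43.4%) had the 3 largest values, TIMP3 (48.7%) and TIMP2 (53.7%) had values of 0.10 and 0.04, MMP2 (56.5%) had -0.05, and TIMP1 (57.9%), MMP14 (58.9%) and MMP15 (66.0%) had the 3 lowest. Across these 9 genes, which share the same 6 libraries and are not replicates, Pearson's r was -0.95 and Spearman's rho -0.97, given as a description. Over all tested genes r was -0.637. The difference in composition ran through the whole transcript: the coding sequence held 41.6% GC in ADAM10 and 44.6% in ADAM17 against 57.5% in TIMP1 and 65.2% in MMP15. At the last position of each codon the values were 33.2%, 45.7%, 73.1% and 81.3%, and in the stretch after the stop codon 35.8%, 35.1%, 53.1% and 61.5%. TIMP2 and TIMP3 combined coding sequences of 59.3% and 58.5% GC with long tails of 49.2% and 44.6%.

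**Figure D3:**
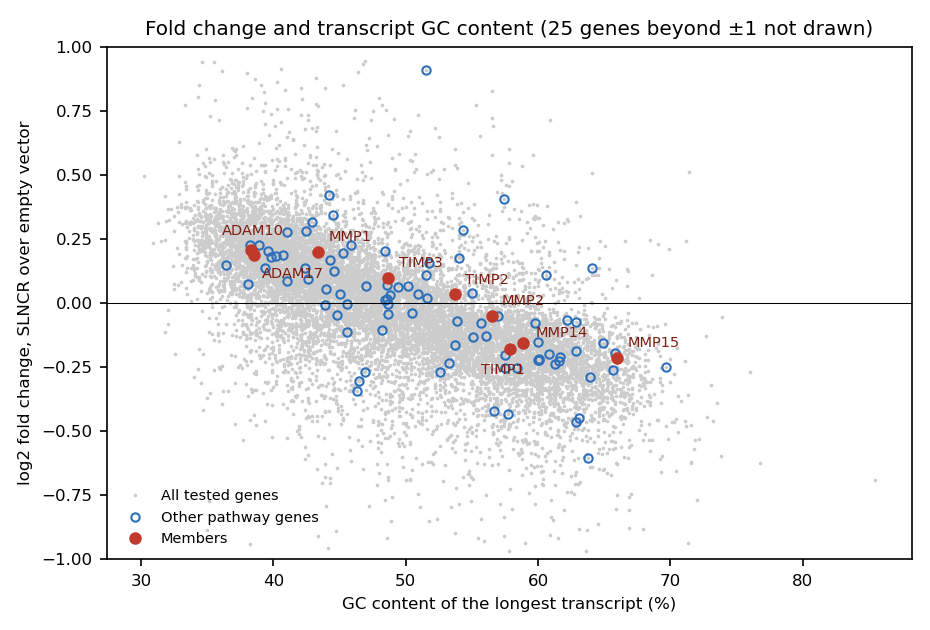
Log2 fold change of SLNCR over empty vector against GC content of the longest transcript for all tested genes (grey), 86 other genes of the pathway (open circles) and the 9 tested genes of this account (filled circles); 25 genes beyond ±1 are not drawn. The filled circles follow the downward slope of the grey cloud, from ADAM10 at 38.3% GC to MMP15 at 66.0%.

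When each library was corrected for GC content, 0 of the 9 genes passed (edgeR), and 2, MMP2 and TIMP2, had an unadjusted p below 0.05. In that fit 0.0156% of all genes passed and 15.1% had an unadjusted p below 0.05. ADAM10 stood at 0.01 in log2 units (standard error 0.0464, 95% interval -0.09 to 0.11), ADAM17 at -0.01, and TIMP1 at -0.01 (standard error 0.0509, 95% interval -0.11 to 0.10). MMP14 stood at 0.03 and MMP15 at 0.07, both turned from below 0. MMP1 kept a value of 0.11 (95% interval -0.08 to 0.30) and TIMP3 one of 0.12. MMP2 stood at 0.10 (standard error 0.0420, unadjusted p = 0.0235, edgeR adjusted p = 0.249) and TIMP2 at 0.14 (standard error 0.0473, unadjusted p = 0.00748, edgeR adjusted p = 0.165). Without SLNCR replicate 2, TIMP2 passed in the corrected fit at 0.18 (edgeR adjusted p = 0.0275). In that fit 668 genes passed in all, against 2 in the corrected fit of all 6 libraries. Since the slope against GC content differs between the groups in every library, a difference between the cultures and one between the library preparations cannot be told apart here.

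**Figure D4:**
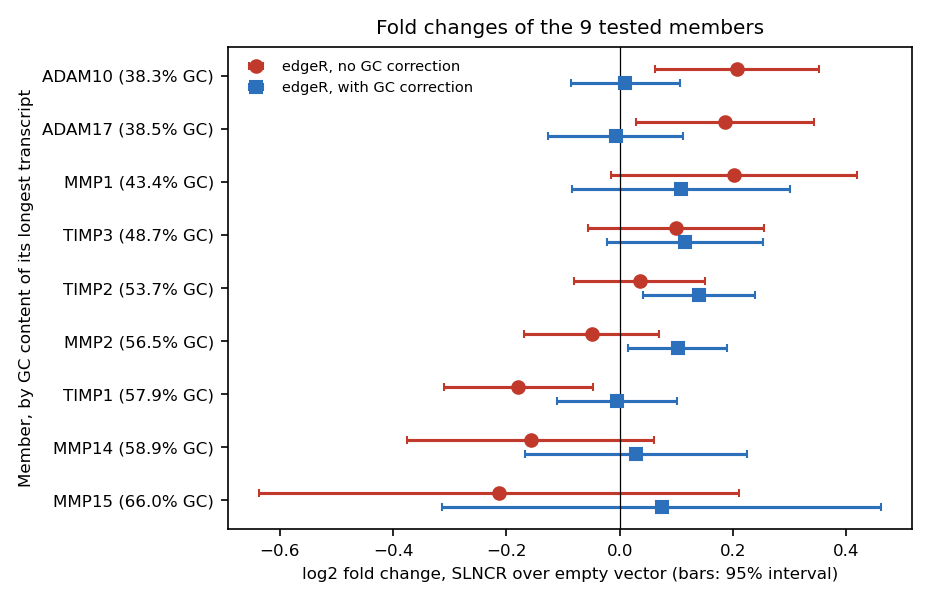
Log2 fold changes of the 9 tested genes with 95% intervals, ordered by transcript GC content, from edgeR without (circles) and with (squares) the correction for GC content. The uncorrected values run from 0.21 for ADAM10 to -0.21 for MMP15, and the corrected ones lie between -0.01 and 0.14.

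The 3 tested genes outside the lists whose log2 CPM ran most like that of ADAM10 over the 6 libraries were ZNF800 (Pearson's r = 0.9971), FNIP1 (0.9965) and TMEM267 (0.9940). Their transcripts hold 37.9%, 38.9% and 35.1% GC, and their log2 fold changes were 0.22, 0.24 and 0.24. None of the 3 passed (edgeR adjusted p = 0.0600, 0.0638 and 0.121). These r values are the highest picked from all tested genes outside the lists, over only 6 libraries. They were not tested and do not show a link to ADAM10.

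MMP1 lies in a cluster of metalloproteinase genes on chromosome 11, of which 8 were in the table between 102520508 and 102955734 (GRCh38). Only 3 of the 8 were counted above a mean of 10 reads, and none passed the test, beside 16.5% of all tested genes. MMP3, stromelysin, was the most abundant, with 1054, 837 and 939 reads with the empty vector and 991, 1049 and 856 with SLNCR (log2 fold change -0.05, edgeR adjusted p = 0.621). MMP13, a collagenase, had 32, 23 and 29 against 37, 30 and 37 reads (log2 fold change 0.23, edgeR adjusted p = 0.498). MMP10, next to MMP1, had 2, 1 and 0 against 5, 3 and 2 reads, and MMP7, MMP8, MMP12 and MMP20 each had a mean below 1 read.

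Outside the 10 genes, 123 genes of the pathway were listed by role, of which 111 were in the table and 86 were tested. Of these 3 rose and 15 fell, 3.49% and 17.4%, beside 8.84% and 7.67% of all tested genes. The median GC content was 45.3% among the 3 that rose and 60.0% among the 15 that fell, and with the GC correction 0 passed and 12 had an unadjusted p below 0.05 (edgeR). None of the 86 passed when any of the same 3 libraries was left out. Their median log2 fold change was 0.00. In the same libraries the slope of log2 CPM against GC content was above 0 in every empty vector library and below 0 in every SLNCR library.

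Other proteases of the 3 families were read beside all tested genes, of which 16.5% passed by edgeR. DESeq2 called 18.8% of all genes. The lists are short, and none was tested against these shares. Of 6 further MMP genes tested by edgeR 0 passed, and DESeq2 called 0 of the 2 for which it gave an adjusted p. An unadjusted edgeR p below 0.05 was found for 1 of the 6, MMP16 (log2 fold change 0.15, adjusted p = 0.0831), beside 34.8% of all tested genes. Of 9 further ADAM genes ADAM15, a disintegrin protease, fell by 0.29 in log2 units (standard error 0.0802, edgeR adjusted p = 0.0259), from 135, 120 and 129 to 112, 112 and 88.9 CPM. Its transcript holds 63.9% GC, and with the correction it stood at -0.04. ADAM9, the most abundant ADAM gene per kilobase, stood at 0.14 (edgeR adjusted p = 0.0871). Of 12 ADAMTS genes, which encode secreted relatives, 0 passed by edgeR, and DESeq2 called 0 of the 4 for which it gave an adjusted p. Of the 12, ADAMTS6 alone had an unadjusted edgeR p below 0.05, again beside 34.8% of all tested genes. ADAMTS12 and ADAMTS1, the most abundant, stood at 0.01 and 0.02.

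Among 9 tested regulators of MMP activity 0 rose and 3 fell, beside 8.84% and 7.67% of all tested genes in these directions. BSG, a surface protein known to induce MMPs, fell by 0.23, and LRP1, an endocytic receptor that clears proteases and inhibitors, fell by 0.22 in log2 units (edgeR adjusted p = 0.0316 and 0.0291). Both transcripts hold over 60% GC (61.6% and 60.1%), and with the correction they stood at 0.00 and -0.02. PCSK7, a proprotein convertase, fell by 0.34 (standard error 0.0937, edgeR adjusted p = 0.0249), from 55.1, 51.4 and 53.7 to 41.5, 48.9 and 35.7 CPM. At 46.3% GC it stood at -0.37 with the correction (unadjusted p = 9.97e-04, edgeR adjusted p = 0.0953). PCSK7 overlaps TAGLN on the opposite strand, which stood at -0.31, so their reads may be mixed. FURIN, the convertase that activates MMP14, stood at -0.21 and RECK, a membrane inhibitor of MMPs, at 0.42, and neither passed (edgeR adjusted p = 0.0623 and 0.0567). THBS1, the most abundant of the list at 731 ± 9.98 CPM per kilobase with the empty vector, stood at 0.00. Of 6 tested genes of the plasminogen system, which activates MMP precursors, 0 passed by edgeR, beside 16.5% of all tested genes. DESeq2 called 0 of the 5 for which it gave an adjusted p, beside 18.8% of all genes. PLGRKT, a plasminogen receptor, was the 1 of 6 with an unadjusted edgeR p below 0.05, beside 34.8% of all tested genes. SERPINE2, the most abundant, stood at 0.09.

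For ADAM10 and ADAM17 the partner proteins were also followed. Of 8 tested partner genes 0 rose and RHBDF2, which encodes the iRhom2 protein that carries ADAM17 to the cell surface, fell by 0.46 in log2 units (standard error 0.116, edgeR adjusted p = 0.0181). It went from 18.9, 18.2 and 15.9 to 11.9, 14.1 and 12.4 CPM, with no overlap between the groups, as for 38.9% of all tested genes. The 1 call among 8 genes compares with 7.67% of all tested genes called lower. At 62.9% GC it stood at -0.22 with the correction (unadjusted p = 0.0525). TSPAN14, the most abundant tetraspanin partner of ADAM10 here, stood at -0.04.

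Of 22 tested substrates 3 rose and 4 fell, where 8.84% and 7.67% of all tested genes did. CD44, the hyaluronan receptor, went from 1312, 1318 and 1367 to 1491, 1469 and 1622 CPM, a rise of 0.20 in log2 units (edgeR adjusted p = 0.0159). TGFA, an EGF receptor ligand precursor that ADAM17 sheds, rose by 0.23 (edgeR adjusted p = 0.0159), and the adhesion molecule gene ALCAM rose by 0.20 (0.0355). With the GC correction CD44 stood at 0.15 and TGFA at 0.19, with edgeR adjusted p of 0.0760 and 0.0609, and ALCAM at 0.03. NOTCH3, TNFRSF1A, L1CAM and SDC1 fell by 0.45, 0.25, 0.22 and 0.22 on the log2 scale, and with the correction stood at -0.20, -0.09, -0.02 and -0.02.

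A list of AP-1 factors, ETS factors and SP1 held 14 tested genes. AP-1 and ETS factors are known to drive MMP1 and MMP3 transcription. Of the 14, 0 rose and 6 fell, all of them AP-1 genes. FOSB fell by 0.43, JUN by 0.42, FOS by 0.27, JUND by 0.25, FOSL2 by 0.24 and FOSL1 by 0.15 on the log2 scale. JUNB, the other AP-1 gene of the list, stood at -0.16 and did not pass (edgeR adjusted p = 0.203). DESeq2 called 4 of the 14 (FOSB, JUN, JUND and FOSL2), beside 18.8% of all genes. Of all tested genes 8.84% rose and 7.67% fell, and none of the 6 passed with the GC correction. In the same fit MMP1 stood at 0.20 (95% interval -0.02 to 0.42) and MMP3 at -0.05 (-0.19 to 0.09), and neither passed. A link between these factors and the MMP genes was not tested. With the GC correction FOSB stood at -0.27, JUN at -0.27, FOS at -0.19 and FOSL2 at -0.14. JUND, FOSL1 and JUNB stood at 0.09, 0.05 and 0.115. FOSB overlaps ERCC1 on the opposite strand.

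Promoter windows of 300 bases from RefSeq (GRCh38.p14, 250 before to 50 after the start) were found for 6 of the 10 genes: MMP14, MMP15, TIMP1, TIMP3, ADAM10 and ADAM17. On both strands, the GC box GGGCGG occurred in all 6 windows and in 45% of 35116 windows, and it was found between 1 time in MMP14 and ADAM10 and 5 times in MMP15 and TIMP3. The AP-1 letters TGAGTCA and the E2F letters TTTGGCGC, TTTCCCGC, TTTCGCGC and TTTGCCGC occurred in 0 of the 6, and in 4.95% and 3.31% of all windows. The ETS letters CAGGAAG occurred in TIMP1 and ADAM17 and in 12.7% of all windows. A missing match says only that these letters are not in the window. The windows of ADAM10 and ADAM17 held 68.0% and 74.7% GC, so their low GC content is a feature of the transcripts and not of these windows.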

How the data were processed

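The authors deposited raw read counts per gene for the 6 libraries, whole numbers whose totals differ. The submitters' processing notes name cutadapt, STAR, DESeq2 (version 1.24.07) and GRCh38. The sources used here do not give the counter, annotation or strand setting. Rows that name no gene (1857 rows, 2.15% to 2.59% of counts) and 63 repeats of neighbouring rows were left out. The test was the robust quasi-likelihood F-test of edgeR 4.0.16 under R 4.3.3, two-sided, with TMM factors, the filterByExpr filter and Benjamini-Hochberg adjustment over 12797 genes. Coordinates, lengths and GC content came from GENCODE 29. The GC correction entered a loess curve (span 0.5) per library as offsets. Alternatives were RLE factors, no filter, DESeq2 1.42.0, a replicate block, the GC correction with and without the block, all rows kept, and each library left out. Leaving out each library under the GC correction was added after seeing the data. The scripts were tested on simulated data.

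The genes and lists were chosen with earlier results of these data known. All 10 genes are reported whatever their result; from the other lists, the genes that passed (up to 6 a list) and the 3 of highest level per length could be named, and 3 genes most like ADAM10. Genes of the MMP cluster on chromosome 11 other than MMP1 and MMP3, and RECK, FURIN, ADAMTS6, ALCAM and JUNB, lie outside this rule. ALCAM passed, but beyond the 6 of its list. These genes were chosen after their values were seen, as were the examples named from the cell type marker and RNA quality lists. Total counts of 9018886 to 10497547 per library limit precision for low genes such as MMP9 and MMP15. The labels number the replicates without saying that they are separate cultures, so p-values measure the spread between these libraries, which may be technical.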

Additional observations from a re-analysis of the deposited data

How the results depend on the processing

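ADAM10 passed in 7 of 13 alternatives, not counting the corrected fits with 1 library left out. It stood at 0.01 in both GC-corrected fits and below 0 in 3 of the 6 corrected fits with 1 library left out (-0.025, -0.007 and -0.002). The call was lost in both GC-corrected fits and without empty vector replicate 1 or 2 or SLNCR replicate 1 or 3. The number of the 10 genes that passed was 2 without the low count filter (ADAM17 joined), 3 with the replicate block (TIMP1, ADAM10, ADAM17), 0 with the GC correction with or without the block, and 0 to 2 when 1 library was left out, with or without the correction. Over all genes the count of 2112 became 3523 with the block, 2 with the GC correction, 407 with both, and 0 to 3366 when 1 library was left out. Of the other pathway genes 18 passed, against 31 with the block, 0 with the GC correction, 4 with both, and 0 to 30 when 1 library was left out. Directions turned under the GC correction for MMP2 (0.102, and 0.103 with the block), MMP14 (0.029 and 0.033), MMP15 (0.074 and 0.076) and ADAM17 (-0.007 and -0.006); the cause was not tested. With 1 library left out, with or without the correction, log2 fold changes ran from -0.08 to 0.122 for MMP2, -0.218 to 0.094 for MMP14, -0.363 to 0.255 for MMP15, -0.226 to 0.035 for TIMP1, -0.025 to 0.269 for ADAM10, -0.05 to 0.233 for ADAM17, 0.037 to 0.292 for MMP1, 0 to 0.181 for TIMP2 and 0.055 to 0.169 for TIMP3. Without correction the value of MMP1 was lowest without empty vector replicate 1 (0.117), that of TIMP2 without SLNCR replicate 3 (0) and that of TIMP3 without SLNCR replicate 3 (0.055).

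Replicate numbers are shared by both groups, and the labels do not say that they pair libraries. Deviations of same-numbered libraries correlated at 0.13, -0.01 and 0.32, and empty vector replicate 1 ran closest to SLNCR replicate 2 (0.30). These correlations cannot settle the pairing, since libraries also differ in their slope against GC content. The main fit used no pairing, and counts with the replicate block are given above. Depth limits MMP9, at 0 to 2 reads, and MMP15, at 38 to 72 reads.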
